A study of Mus musculus with 16 samples.

Results

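The Nestin locus is a 1084 kb stretch of mouse chromosome 3 (mm9, 87285088 to 88369087) that was tiled with 5C primers. 5C (chromosome conformation capture carbon copy) counts ligation products between chosen restriction fragments, and a forward and a reverse primer are needed for each product. Pairs of a forward and a reverse primer with both primers in the locus were taken, without those that had a fragment midpoint in an 80 kb stretch from 480 to 560 kb of the locus, which was not analysed here. This left 9216 primer pairs of the 92436 within the 7 loci of the series, from 96 forward and 96 reverse fragments. The choice used primer names and positions only, and no measured value.

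The groups were neural progenitor cells (NPCs), mouse embryonic stem (ES) cells in serum and ES cells in 2i, with 2 5C libraries and 1 CTCF ChIP-seq library each. NPCs came from whole brains of Sox2-eGFP mice (129SvJae x C57BL/6) at postnatal day 1. They were grown as neurospheres with EGF and FGF, plated on laminin and fixed a day later. ES cells were of the V6.5 line (male, 129SvJae x C57BL/6). They were grown on feeder cells and then gelatin, in medium with serum and LIF, or in serum-free 2i medium with LIF, CHIR99021 and PD0325901. All groups were untreated otherwise. Cell type, origin and medium differ together between NPCs and ES cells and cannot be told apart. Whether both libraries of a group stem from separate cultures or animals is not in the labels, so p-values below cover the spread between these libraries, which may be technical. The files hold no expression values, so the cell types could not be checked against marker genes.

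Chromosomes fold into domains whose parts touch each other more often than they touch the neighbouring domain, and the border between domains is said to insulate. CTCF, a zinc-finger protein, binds many such borders and the feet of many loops, where it halts the cohesin ring that extrudes DNA. Nestin, encoded by Nes, is an intermediate filament protein of neural progenitors. In the RefSeq gene order of another build, GRCm38.p6, the nearest protein-coding genes before Nes are Crabp2, which binds retinoic acid in the cell, Isg20l2, Rrnad1, Mrpl24 (a mitochondrial ribosomal protein), Hdgf, Prcc, Sh2d2a and Insrr. Those after it are Bcan (brevican, a proteoglycan of brain matrix), Hapln2, Gpatch4, Naxe, Ttc24, Iqgap3, Mef2d (a MADS-box transcription factor) and Rhbg. No annotation of mm9 was used here, so no gene is placed in a window below.

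The libraries held 11784821 to 26533530 counts in all, of which 1376743 to 2311319 were on the 9216 Nestin pairs. Their share of a library was 10.3% and 10.5% in NPCs, 8.71% and 8.28% in ES serum and 11.7% and 10.3% in ES 2i. The median count per pair was 21 and 23 in NPCs, 46 and 46 in ES serum and 24 and 34 in ES 2i. No single primer pair held more than 1.28% of a library's Nestin counts. They are PCR reads that carry no molecular identifier, and so no independent molecules.

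Short contacts took a larger share of the Nestin counts in the NPC libraries than in those of ES cells. Pairs of fragments under 32 kb apart took 66.5% and 64.4% of the Nestin counts in the NPC libraries, 51.7% and 46.8% in ES serum and 52.4% and 50.0% in ES 2i. Pairs from 128 to 512 kb apart took 14.9% and 15.4% in NPCs, 21.0% and 23.1% in ES serum and 21.8% and 23.1% in ES 2i. The NPC libraries did not overlap those of the ES groups in either range. With 2 libraries against 2, the smallest 2-sided p that an exact permutation test can give is 0.333, so these shares were not tested. All comparisons below were made after the decay of counts with distance had been taken out within each library.

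The locus was cut into 68 windows of 16 kb, 61 of which held a fragment in use. At each edge between windows, the counts that joined the 10 windows before it with the 10 windows after it were divided by those expected from distance. The log2 of this ratio, minus its median over the 41 edges with at least 6 usable windows on each side, is the insulation score, and a low score means that few contacts cross the edge. A boundary was an edge with the lowest mean score of a group within 3 edges on either side and at least 0.3 below 0 in both libraries. Libraries of the same group had nearly the same profile, with a Pearson correlation across edges of 0.994 to 0.998, and libraries of different groups correlated at 0.891 to 0.973. Profiles from the authors' observed values, described below, correlated at 0.973 to 0.987 within groups but at 0.459 to 0.740 between them. Neighbouring edges share counts, so these correlations only describe the profiles.

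By this rule NPCs had 3 boundaries, ES serum 2 and ES 2i 3. The first, at 87381088, was found in every group. It is the first edge measured, so no edge before it could be lower. With sums over 5 windows before and after each edge, edges from 87333088 on were measured. Group means there were -0.40 in NPCs, -0.93 in ES serum and -0.63 in ES 2i. Boundaries inside the measured run were then called at 87397088 in NPCs (-1.72 and -1.49) and ES 2i (-1.98 and -1.63). In ES serum the call was at 87365088 (-1.89 and -1.85). Under the rule above, 87381088 had -1.38 and -1.29 in NPCs, -0.86 and -0.84 in ES serum and -1.47 and -1.21 in ES 2i. The last, at 87669088, was also found in every group, with -1.21 and -1.02 in NPCs, -0.48 and -0.45 in ES serum and -0.88 and -0.69 in ES 2i. It is the last edge measured before the stretch not used. Between them, NPCs had a shallow minimum at 87525088 with -0.95 and -0.83, and ES 2i had a minimum a window earlier, at 87509088, with -0.99 and -0.82. At 87525088 the ES serum libraries had -0.14 and -0.19, short of the 0.3 required.

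**Figure D1:**
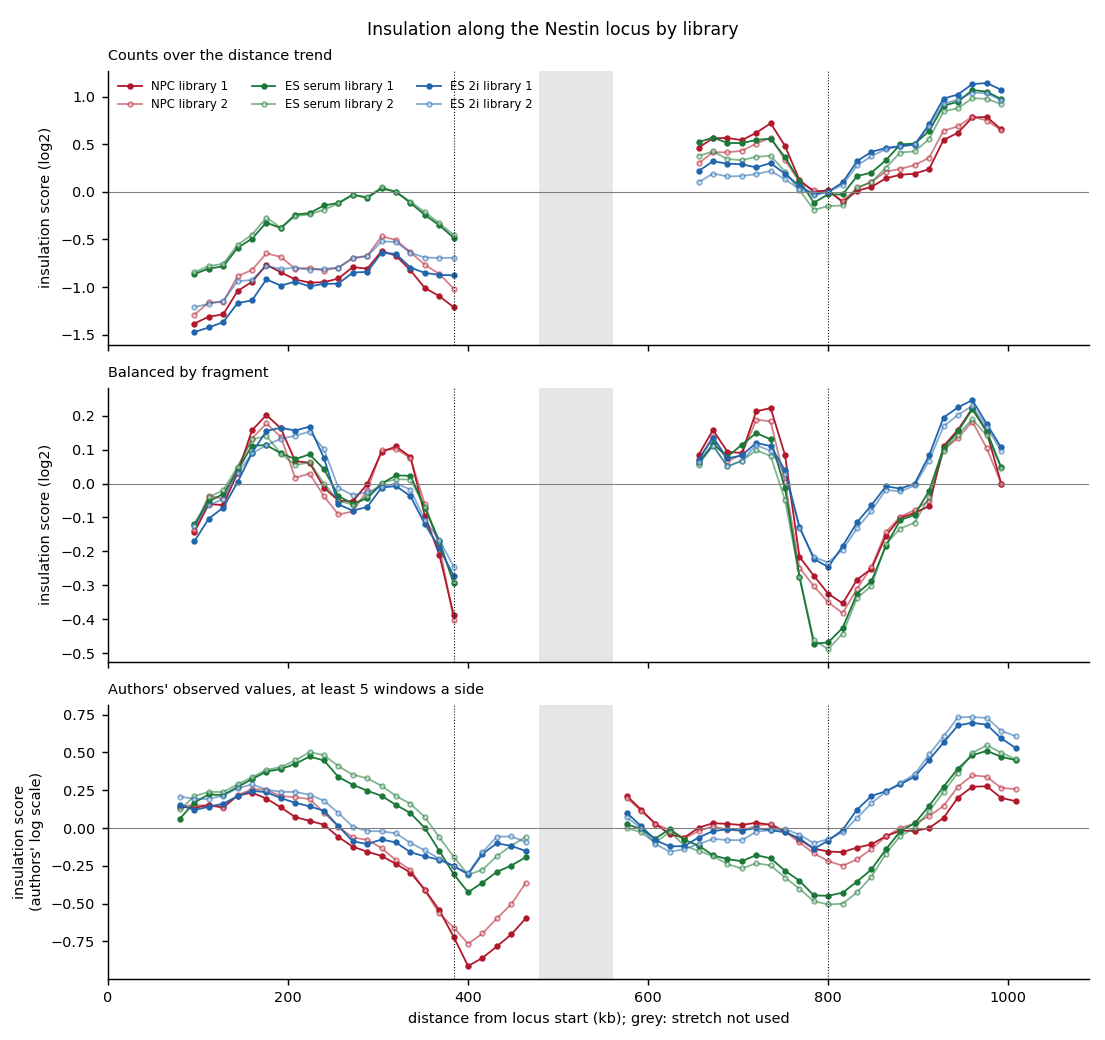
Insulation scores of each library (filled, library 1; open, library 2) against distance from the locus start in kb, from counts over the distance trend (top), from counts balanced by fragment (middle) and from the authors' observed values (bottom). Grey marks the stretch not used and dotted lines the 384 and 800 kb edges. Scores dip at both dotted lines, and after balancing the ES serum libraries lie at -0.47 and -0.49 at the second.

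The low scores in the first 384 kb of the locus stood beside a low yield of its fragments. Summed over all pairs at least 2 windows apart, the median log2 ratio of a fragment's counts to its expected counts was -1.05 and -0.78 for these 71 fragments in NPCs, -0.59 and -0.55 in ES serum and -1.13 and -0.83 in ES 2i. For the 53 fragments of the last 284 kb it was 0.20 and 0.34 in NPCs, 0.20 and 0.30 in ES serum and 0.29 and 0.37 in ES 2i. The part of primer efficiency in this was not tested. When expected counts were scaled so that each fragment's total matched within each library, the interior minima and the boundary at 87381088 no longer passed the rule in any group. The minimum at 87669088 remained, with balanced scores of -0.39 and -0.40 in NPCs, -0.29 and -0.29 in ES serum and -0.27 and -0.25 in ES 2i, of which those of NPCs pass 0.3. A further minimum lay around 88085088. Balanced scores there were -0.32 and -0.35 in NPCs, -0.47 and -0.49 in ES serum and -0.25 and -0.23 in ES 2i. Scores dipped there before balancing as well, but not to the 0.3 below 0 required. Unbalanced group means at 88021088, 88085088 and 88245088 were 0.64, 0.0079 and 0.79 in NPCs. They were 0.47, -0.09 and 1.03 in ES serum and 0.26, 0 and 1.09 in ES 2i. With 5 windows in place of 10 and no balancing, 88101088 passed the rule in ES serum (-0.57 and -0.53). Balancing called NPC boundaries at 87669088 and 88101088, 1 in ES serum at 88085088 and 0 in ES 2i.

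The authors' own observed values per pair of 4 kb bins gave minima at nearly the same places. With at least 5 usable windows required on each side, their lowest score before the stretch not used was at 87685088 in every group, a window past 87669088. It was -0.91 and -0.76 in NPCs, -0.42 and -0.31 in ES serum and -0.31 and -0.30 in ES 2i, on the authors' log scale of unstated base. A second minimum at 88085088 passed the rule in ES serum, with -0.45 and -0.51, against -0.16 and -0.22 in NPCs and -0.08 and -0.07 in ES 2i. Minima at or next to both places were thus present with the deposited processing and with fragment balancing.

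The edges 87669088 and 88085088 split the locus into a first segment of 384 kb, a middle segment of 416 kb (with the stretch not used) and a last segment of 284 kb. The segments were chosen after the profiles were seen, so contacts within and between them are described without a test. With balanced expected counts, contacts between the first and the middle segment had a log2 ratio of observed to expected counts of -0.44 and -0.43 in NPCs, -0.15 and -0.16 in ES serum and -0.13 and -0.10 in ES 2i. The NPC libraries lay lowest and did not overlap the others. Contacts between the middle and the last segment had -0.0029 and -0.0097 in NPCs, -0.19 and -0.19 in ES serum and -0.07 and -0.10 in ES 2i. Here the ES serum libraries lay lowest and those of NPCs highest, close to what distance and fragment totals gave.

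**Figure D2:**
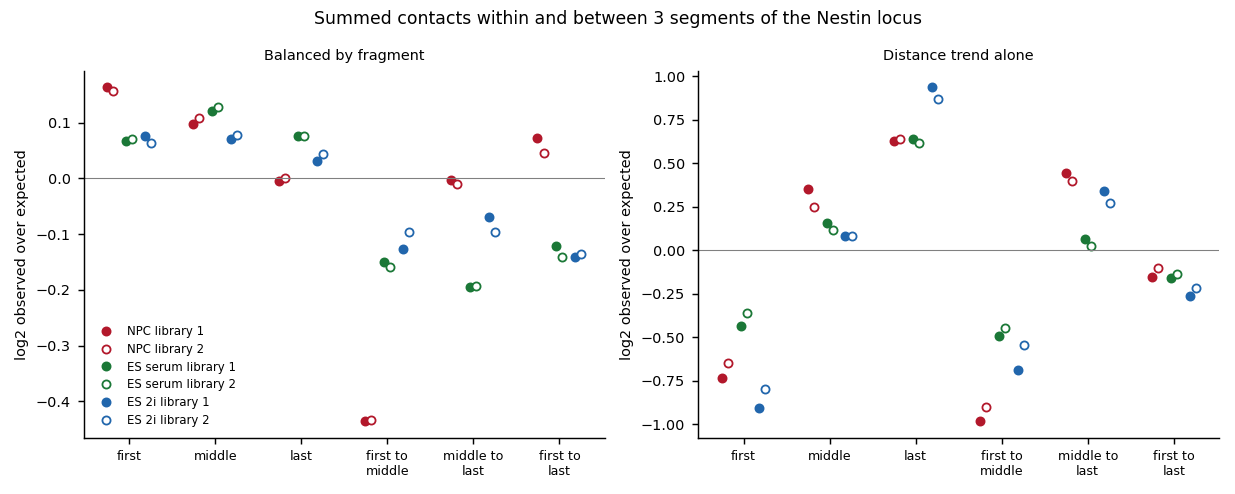
Log2 ratio of observed to expected counts, summed within and between the 3 segments, per library (filled, library 1; open, library 2), with expected counts balanced by fragment (left) and from distance alone (right). After balancing, contacts from the first to the middle segment are lowest in the NPC libraries (-0.44 and -0.43) and those from the middle to the last segment lowest in the ES serum libraries (-0.19 and -0.19).

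Within the first segment, balanced contacts were at 0.16 and 0.16 in NPCs, 0.07 and 0.07 in ES serum and 0.08 and 0.06 in ES 2i. From distance alone NPCs lay below ES serum there, with -0.73 and -0.65 in NPCs, -0.44 and -0.36 in ES serum and -0.91 and -0.80 in ES 2i. Balanced contacts between the first and the last segment, the farthest apart, were at 0.07 and 0.04 in NPCs, -0.12 and -0.14 in ES serum and -0.14 and -0.14 in ES 2i. From distance alone these were at -0.15 and -0.10 in NPCs, -0.16 and -0.13 in ES serum and -0.26 and -0.22 in ES 2i, so that NPCs and ES serum overlapped. NPCs thus lay above both ES groups within the first segment and from the first to the last after balancing but not before it. From distance alone, contacts between the first and the middle segment were again lowest in NPCs, at -0.98 and -0.90, against -0.49 and -0.45 in ES serum and -0.69 and -0.54 in ES 2i. Contacts between the middle and the last segment then lay above 0 in every library, with 0.44 and 0.40 in NPCs, 0.07 and 0.02 in ES serum and 0.34 and 0.27 in ES 2i. For these sums between the middle and the last segment, the order of the groups was the same under both kinds of expected counts. In the balanced insulation scores at the edge itself, 88085088, ES 2i lay highest instead (-0.25 and -0.23, against -0.32 and -0.35 in NPCs).

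**Figure D3:**
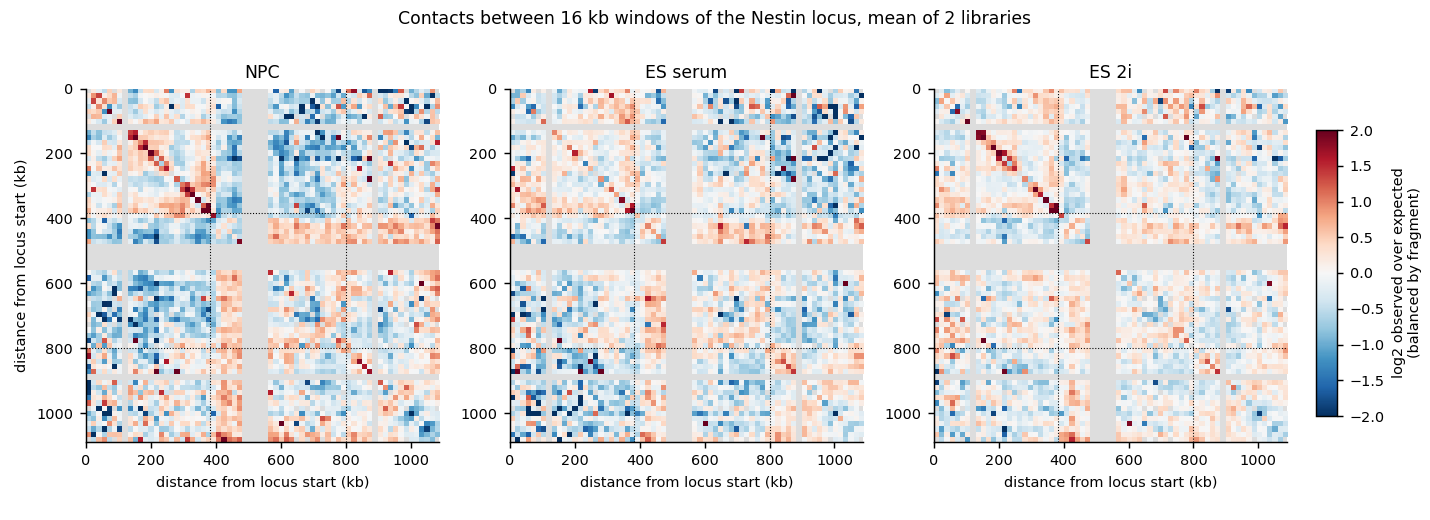
Log2 ratio of observed to balanced expected counts for each pair of 16 kb windows, as the mean of the 2 libraries of NPCs (left), ES serum (middle) and ES 2i (right). Both axes give the distance from the locus start in kb, grey marks windows not measured and dotted lines the segment edges. The block joining the first and middle segments is bluest in NPCs, where its summed ratios are -0.44 and -0.43.

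The change in insulation was tested at each edge by edgeR's quasi-likelihood test, adjusted by Benjamini and Hochberg's method over the 339 edges of all 7 loci and a threshold of 0.05. For NPCs against ES 2i, 23 of the 41 Nestin edges changed (56.1%), against 66.1% of all edges, with 11 rises and 12 falls (26.8% and 39.2% of all edges). For NPCs against ES serum 27 changed (65.9%), against 75.5% of all edges, with 13 rises and 14 falls (32.4% and 43.1% of all edges). For ES serum against ES 2i 33 changed (80.5%), against 60.2% of all edges, with 18 rises and 15 falls (28.0% and 32.2% of all edges). An edge sums many counts, from 11225 to 134148 per library at the edges named below, so small changes can be called. The comparisons share their libraries, neighbouring edges share counts, and the called edges came in runs.

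In NPCs against ES 2i, contacts rose across 8 edges in a row of the middle segment, from 87941088 to 88053088. At 88021088 the log2 ratio of observed to expected counts was 0.85 and 0.67 in NPCs and 0.34 and 0.25 in ES 2i, and the log2 fold change was 0.47 (SE 0.07, adjusted p by edgeR 0.000429). At 87957088 it was 0.69 and 0.52 in NPCs and 0.36 and 0.22 in ES 2i, a log2 fold change of 0.31. Without ES 2i library 2 the call at 87957088 was lost (edgeR adjusted p = 0.0624). With balanced expected counts 7 of the 8 edges stayed above 0 and 5 were called as rises, the rise at 88021088 was 0.14, and 88053088 turned to a called fall of 0.07. A run of 3 edges in the first segment also rose, with -0.81 and -0.72 in NPCs and -1.10 and -0.89 in ES 2i at 87445088 (log2 fold change 0.23, edgeR adjusted p = 0.0279). Its call was lost under 6 alternatives, with adjusted p-values of 0.0582 to 0.503: without either NPC library or ES 2i library 1, with a diamond of 20 windows, by limma, and without the primer pair with most counts. All libraries of NPCs lay above those of ES 2i at these edges.

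Contacts fell in NPCs against ES 2i across 11 edges in a row of the last segment, from 88117088 to 88277088. At 88197088 the log2 ratio was 0.37 and 0.46 in NPCs and 0.75 and 0.72 in ES 2i, and the log2 fold change was -0.32 (SE 0.05, adjusted p by edgeR 0.00065). At 88277088 it was 0.79 and 0.75 in NPCs and 1.11 and 0.99 in ES 2i (log2 fold change -0.28). With balanced expected counts 8 of these 11 edges were still called as falls and 1 edge lay above 0. The log2 fold changes of all 11 lay between -0.14 and 0.0022. The edge between the first and middle segments, 87669088, fell as well, with -1.08 and -0.91 in NPCs against -0.84 and -0.66 in ES 2i (log2 fold change -0.25, SE 0.08, edgeR adjusted p = 0.0193). That call was lost without NPC library 1 (edgeR adjusted p = 0.153) and without ES 2i library 2 (0.161), and with a diamond of 5 windows (0.0607). With balanced expected counts the fall was 0.10 (edgeR adjusted p = 0.00328). Allowing 5 usable windows a side, the next edge, 87685088, fell by 0.41 (edgeR adjusted p = 0.00685). With plain scaling of whole libraries 14 Nestin edges rose and 6 fell.

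In NPCs against ES serum, contacts fell across 12 edges in a row of the first segment up to 87669088. At 87541088 the log2 ratio was -0.78 and -0.69 in NPCs and -0.28 and -0.21 in ES serum, and the log2 fold change was -0.49 (SE 0.07, adjusted p by edgeR 0.000173). At 87637088 it was -0.88 and -0.66 in NPCs and -0.41 and -0.31 in ES serum, a log2 fold change of -0.41. Balanced expected counts left little of this fall: 9 of the 12 edges stayed below 0 and 5 were called as falls, while 3 lay above 0 and 2 of them, 87589088 and 87605088, were called as rises of 0.06 each. The balanced fall was 0.06 at 87541088 (edgeR adjusted p = 0.0473), 0.04 at 87637088 (edgeR adjusted p = 0.156) and 0.13 at 87669088 (edgeR adjusted p = 0.00093). The first edge, 87381088, fell by 0.24 with an edgeR adjusted p of 0.0462, and this call was lost under 11 alternatives, among them balancing and leaving out any library of NPCs or of ES serum. With plain scaling of whole libraries, under which the median over all edges was 0.07 in place of -0.05, 87541088 was at -0.05 and lost its call (edgeR adjusted p = 0.390), 87637088 turned to 0.03 and 87381088 to 0.20, and all 29 Nestin edges called rose.

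Across the edge between the middle and last segments, contacts were higher in NPCs than in ES serum, in a run of 13 edges from 87957088 to 88149088. At 88021088 the log2 ratio was 0.85 and 0.67 in NPCs and 0.40 and 0.29 in ES serum, and the log2 fold change was 0.42 (SE 0.07, adjusted p by edgeR 0.000813). At 88085088 it was 0.15 and 0.10 in NPCs and -0.19 and -0.24 in ES serum, and the log2 fold change was 0.34 (SE 0.05, adjusted p by edgeR 0.000377). With balanced expected counts this rise was 0.11 (edgeR adjusted p = 0.00227). At 87957088 the rise of 0.24 became 0.0018 after balancing (edgeR adjusted p = 0.933), and its call was also lost without NPC library 1 (0.126) and without ES serum library 2 (0.0695). Over the run 3 of the 13 edges were called after balancing, 88021088, 88069088 and 88085088.

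In ES serum against ES 2i, contacts rose across all 18 edges from 87381088 to 87653088 and fell across all 15 from 88053088 to 88277088. At 87541088 the log2 ratio was -0.28 and -0.21 in ES serum and -0.92 and -0.76 in ES 2i, and the log2 fold change was 0.60 (SE 0.07, adjusted p by edgeR 0.000133). It fell to 0.06 with balanced expected counts (edgeR adjusted p = 0.0641), beside fragment totals in the first segment that also lay higher in ES serum. The other rises named, at 87621088 and 87445088, were 0.44 and 0.39. After balancing 10 of the 18 rises were still called, and 2 edges lay below 0. At 88133088 the log2 ratio was 0.04 and 0.0054 in ES serum and 0.46 and 0.41 in ES 2i, and the log2 fold change was -0.41 (SE 0.05, adjusted p by edgeR 0.000177). The falls at 88069088 and 88197088 were -0.29 and -0.27. With a diamond of 5 windows 12 of the 15 edges stayed below 0 and 8 were called, and 88165088, 88181088 and 88197088 turned to 0.07, 0.01 and 0.11, none of them called. After balancing 7 of the 15 falls were called, 4 edges lay above 0, and 88197088 was at -0.04 (edgeR adjusted p = 0.128). Balanced, 16 Nestin edges rose and 7 fell. With plain scaling 2 Nestin edges rose and 23 fell, and 87445088 turned to -0.02.

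**Figure D4:**
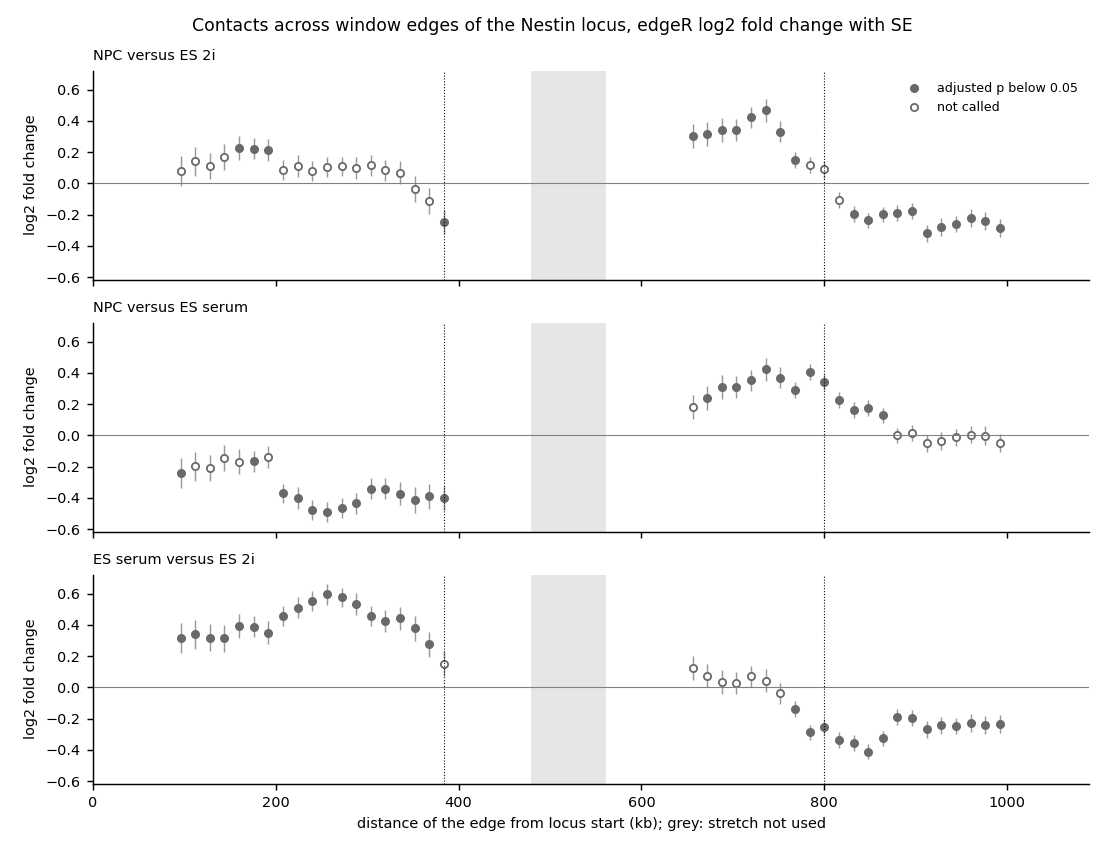
Log2 fold change of contacts across each of the 41 Nestin edges, with SE bars, for NPCs against ES 2i (top), NPCs against ES serum (middle) and ES serum against ES 2i (bottom), by distance from the locus start in kb. Filled points passed an adjusted p of 0.05. The top panel peaks at 0.47 before the edge at 800 kb and the bottom panel at 0.60 in the first segment.

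Single contacts were tested over pairs of 16 kb windows, 1802 of them in the Nestin locus and 15601 in all 7 loci. For NPCs against ES 2i 208 Nestin pairs changed (11.5%), against 18.2% of all pairs, with 90 rises and 118 falls (9.15% and 9.09% of all pairs). For NPCs against ES serum 514 changed (28.5%), against 30.7% of all pairs, with 220 rises and 294 falls (14.4% and 16.3% of all pairs). For ES serum against ES 2i 399 changed (22.1%), against 22.3% of all pairs, with 228 rises and 171 falls (11.9% and 10.3% of all pairs). The median log2 fold change of the Nestin pairs was -0.01, -0.12 and 0.09 in these comparisons, beside 0.03, -0.05 and 0.06 over all pairs. With plain scaling the rises and falls were 109 and 157, 406 and 105, and 46 and 459. The counts of calls leaned on single libraries. For NPCs against ES 2i 91 pairs changed without ES 2i library 1, and for NPCs against ES serum 317 without ES serum library 1 and 238 without library 2. For ES serum against ES 2i 205 changed without ES serum library 1, 112 without library 2 and 167 without ES 2i library 1.

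The changed pairs lay unevenly over the segments. Of all pairs of the 7 loci, 9.15% rose and 9.09% fell in NPCs against ES 2i. The shares were 14.4% and 16.3% in NPCs against ES serum and 11.9% and 10.3% in ES serum against ES 2i. Between the first and the middle segment, 1 of 461 pairs rose and 42 fell in NPCs against ES 2i, and 5 rose and 115 fell in NPCs against ES serum. Between the middle and the last segment, 27 of 345 pairs rose and 14 fell in NPCs against ES 2i, and 94 rose and 11 fell in NPCs against ES serum. Within the last segment, 2 of 148 pairs rose and 40 fell in NPCs against ES 2i, and 22 rose and 36 fell in NPCs against ES serum. Within the middle segment, 32 of 221 pairs rose and 19 fell in NPCs against ES 2i, and 58 rose and 36 fell in NPCs against ES serum. Within the first segment, 25 of 268 pairs rose and 79 fell in NPCs against ES serum, and 26 rose and 3 fell in NPCs against ES 2i. In ES serum against ES 2i, 80 of 268 pairs rose and 12 fell within the first segment, and 15 of 345 rose and 70 fell between the middle and the last. These counts share libraries with the edges above and are no separate evidence. The window-pair tests took out distance alone and were not balanced by fragment. After balancing, summed contacts within the first segment were higher in NPCs (0.16 and 0.16) than in ES serum (0.07 and 0.07).

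Among single contacts that rose in NPCs, windows starting at 88005088 and 88293088, 288 kb apart, had 608 and 600 counts in NPCs, 307 and 255 in ES serum and 244 and 279 in ES 2i. Observed over expected counts were 4.08 and 4.20 in NPCs, 1.10 and 0.88 in ES serum and 1.52 and 1.48 in ES 2i. Against ES 2i the log2 fold change was 1.78 (SE 0.21, adjusted p by edgeR 2.72e-05), and against ES serum 2.15 (adjusted p by edgeR 2.34e-06). This contact joins the middle to the last segment, rests on 3 primer pairs and holds 2 pixels that the authors' deposited table classes as NPC only.

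Several other rises in NPCs lay within the middle segment. Windows starting at 87941088 and 88021088 had observed over expected counts of 0.67 and 0.60 in NPCs and 0.16 and 0.22 in ES 2i, so this contact stayed below its expected level in both (log2 fold change 1.59). Windows starting at 87733088 and 88005088 had 4.88 and 3.71 in NPCs and 1.09 and 0.89 in ES serum (log2 fold change 2.22). Windows starting at 87733088 and 87957088 had 5.66 and 5.72 in NPCs, 1.49 and 1.56 in ES serum and 3.88 and 4.06 in ES 2i (log2 fold change against ES serum 1.97). The last 2 share a window and rest on 2 primer pairs each.

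The largest falls in NPCs against ES 2i all joined the first to the middle segment. Windows starting at 87285088 and 87717088 had 19 and 31 counts in NPCs and 184 and 161 in ES 2i (log2 fold change -2.17). Windows starting at 87637088 and 87973088 had 51 and 32 counts in NPCs and 199 and 150 in ES 2i (log2 fold change -1.48). Windows starting at 87349088 and 87861088 had 44 and 28 counts in NPCs and 136 and 166 in ES 2i (log2 fold change -1.47). Each lost its call, and the second its direction (log2 fold change 0.02), when the primer pair with most counts was left out of each window pair. The second and the third also lost it without NPC library 2 and without ES 2i library 1.

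In ES serum against ES 2i, the largest falls crossed the edge between the middle and last segments. Windows starting at 88069088 and 88245088 had 197 and 203 counts in ES serum and 566 and 611 in ES 2i, or observed over expected counts of 1.03 and 1.03 in ES serum and 5.10 and 4.80 in ES 2i. This was a log2 fold change of -2.18 (SE 0.22, adjusted p by edgeR 1.35e-05). The pair held 10 pixels of the 2i only class but rested on 1 primer pair, as did windows 88069088 and 88181088 (log2 fold change -1.88). Windows starting at 87861088 and 88277088 had 126 and 108 counts in ES serum and 421 and 340 in ES 2i (log2 fold change -2.08). Without its top primer pair the log2 fold change was -0.79 and the call was lost (edgeR adjusted p = 0.142).

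The remaining named contacts joined the first to the last segment, over 592 to 880 kb. Windows starting at 87493088 and 88149088 had observed over expected counts of 7.80 and 8.80 in ES serum and 2.11 and 2.13 in ES 2i (log2 fold change 2.31), and windows 87509088 and 88197088 had 2.16 and 4.50 in ES serum and 0.70 and 1.18 in ES 2i (2.18). Windows 87301088 and 88149088 had 3.49 and 1.55 in NPCs, 6.04 and 10.4 in ES serum and 1.48 and 3.83 in ES 2i. The 2 libraries of each group lay far apart there, and 80.1% of the counts came from 1 primer pair (log2 fold change -2.10 for NPCs against ES serum and 2.09 for ES serum against ES 2i). The call against ES 2i was lost with plain scaling and without ES serum library 2 (edgeR adjusted p = 0.052 to 0.0753). Windows 87557088 and 88149088 rose in NPCs against ES 2i (log2 fold change 1.73), with 86.9% of the counts from 1 primer pair, and the call ended without it (edgeR adjusted p = 0.277). The other falls in NPCs against ES serum, at 87317088 with 88197088 and at 87637088 with 88309088, had log2 fold changes of -1.92 and -1.86. The call at 87317088 with 88197088 was lost with plain scaling and with DESeq2's size factors (adjusted p = 0.0542 to 0.0581).

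The authors' deposited table sorts pixels (pairs of 4 kb bins) into looping classes by their interaction scores. In the Nestin locus 441 looping pixels lay outside the stretch not used, with 215 background pixels. Constitutive pixels, high in all groups, were 231 of these 441 or 52.4%, against 36.1% of the 3942 looping pixels of all loci. NPC only pixels were 34 or 7.71%, against 18.1% over all loci, serum only pixels 58 or 13.2%, against 8.80%, and 2i only pixels 25 or 5.67%, against 11.4%. Pixels in both 2i and serum numbered 29, in 2i and NPC 45, and in serum and NPC 19. The pixels lay in fewer clusters, 23 constitutive, 4 NPC only, 12 serum only and 4 2i only, so pixels are not separate contacts. Shares of pixels thus lean on the large clusters.

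The classes differed in whether they crossed a segment edge. Of the constitutive pixels 91.3% had both bins in 1 segment, with a median distance of 60 kb, as had 96.6% of those in 2i and serum and 82.2% of those in 2i and NPC. Of the NPC only pixels 14.7% had both bins in 1 segment, with a median distance of 294 kb, and of the 2i only pixels 12%, with a median of 188 kb. Of the serum only pixels 37.9% had both bins in 1 segment, with a median distance of 394 kb. Shorter pixels are more likely to fall in 1 segment, so distance and crossing cannot be told apart here.

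Constitutive clusters lay in each segment. The largest, with 63 pixels, joined 88185088 to 88237087 with 88253088 to 88289087 in the last segment, and had mean deposited scores of 49.2 and 49.2 in NPCs, 50.4 and 51.3 in ES serum and 46.8 and 52.2 in ES 2i. A cluster of 34 pixels joined 87297088 to 87329087 with 87345088 to 87377087 in the first segment, and 1 of 23 pixels joined 87897088 to 87917087 with 87965088 to 87989087 in the middle. A cluster of 20 pixels shared by 2i and serum also lay in the middle segment, between 87985088 to 88001087 and 88045088 to 88069087, with mean scores of 22.3 and 29.0 in NPCs, 71.8 and 59.3 in ES serum and 54.0 and 60.3 in ES 2i.

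Both NPC only clusters of at least 9 pixels ran from the same part of the middle segment into the last. The first, of 17 pixels, joined 88013088 to 88033087 with 88325088 to 88341087, with mean deposited scores of 54.8 and 54.6 in NPCs, 14.4 and 15.4 in ES serum and 5.93 and 3.50 in ES 2i. The second, of 9 pixels, joined 88021088 to 88037087 with 88285088 to 88301087, with 55.6 and 58.3 in NPCs, 15.4 and 20.8 in ES serum and 0.59 and 0.85 in ES 2i. These scores chose the class, so they are a description.

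A 2i only cluster of 10 pixels crossed the same edge from closer by, joining 88069088 to 88085087 with 88245088 to 88261087, with mean scores of 17.2 and 27.3 in NPCs, 2.35 and 3.18 in ES serum and 63.3 and 71.9 in ES 2i. The other 2i only cluster of at least 9 pixels joined 87449088 to 87461087 with 87745088 to 87765087, and the serum only clusters of that size did not cross the edge either. A cluster of 11 pixels joined 87629088 to 87645087 in the first segment with 88029088 to 88049087 in the middle, with mean scores of 3.84 and 2.19 in NPCs, 41.6 and 39.6 in ES serum and 2.37 and 3.57 in ES 2i. The other, of 10 pixels, lay within the middle segment.

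The 3 CTCF lists, 1 library each, held 74 sites in the locus outside the stretch not used, after peaks that overlapped by at least 1 bp had been merged. The NPC list held 40 of them, the ES serum list 60 and the ES 2i list 69. The lists themselves differ in length, with 28860 peaks in NPCs, 50185 in ES serum and 56138 in ES 2i, and a peak absent from a list may lie just under its threshold. With 1 library per condition there is no replicate check, and no test was made.

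**Figure D5:**
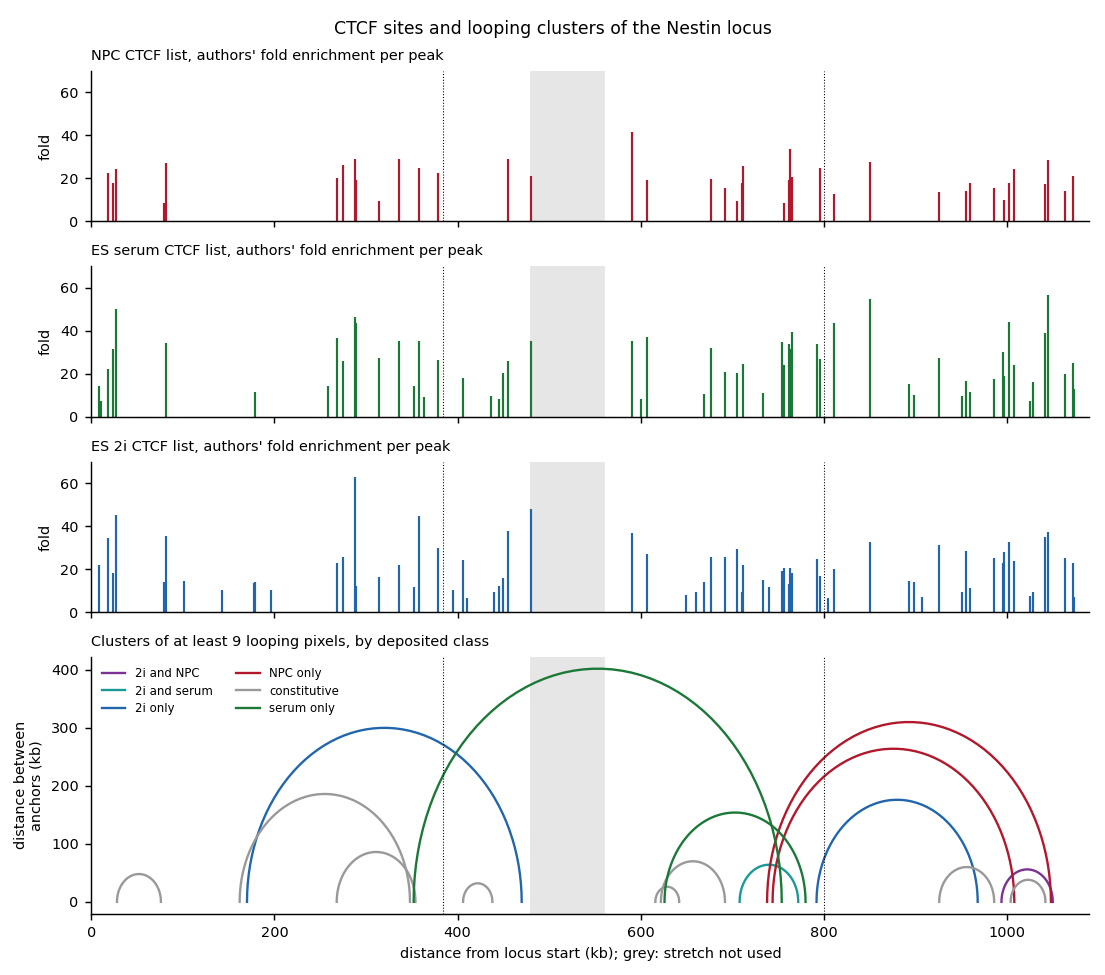
The authors' fold enrichment of each CTCF peak in the NPC, ES serum and ES 2i lists (top 3 panels) and arcs for clusters of at least 9 looping pixels, coloured by deposited class (bottom), against distance from the locus start in kb. Arc height gives the distance between anchors, grey the stretch not used and dotted lines the segment edges. Both NPC only arcs cross the edge at 800 kb, and the NPC list is empty over a gap of 187 kb in the first segment.

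The locus was dense in CTCF sites. It had 7.37 sites per 100 kb, against 8.64 at the Oct4 locus, 8.61 at Nanog, 4.12 at Olig1-Olig2, 2.63 at Klf4, 2.41 at Sox2 and 1.56 at the gene desert. Of the 74 sites 38 (51.4%) were in all 3 lists, against 43.6% of the 60688 sites of the whole lists, and 17 (23.0%) were in both ES lists only, against 33.1%. A further 12 were in the ES 2i list only, 5 in the ES serum list only, 2 in the NPC and ES 2i lists and 0 in the NPC list only. The median fold enrichment, the authors' value, was 20.0, 24.9 and 20.1 in the NPC, ES serum and ES 2i lists, against medians of 15.0, 17.8 and 16.6 over each whole list.

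Sites of all 3 lists were spread over the segments, with 12 in the first, 13 in the middle and 13 in the last. Those with the highest fold enrichment had summits at 87573090 (29.0 in NPCs, 46.6 in ES serum and 62.9 in ES 2i) and 88330341 (28.4, 56.8 and 37.4 in the same lists). The second lies in the far anchor of the larger NPC only cluster. Among the sites of both ES lists only, the highest were 88078114 (33.7 in ES serum and 24.8 in ES 2i) and 88039252 (34.7 and 19.4 in the same lists), both in the middle segment. The sites in the NPC and ES 2i lists were 87995327 and 87364288, the highest ES serum only sites 87543676 and 87721119, and the highest ES 2i only sites 87386644 and 87462619.

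Within 16 kb of the edge between the first and middle segments, 87669088, the NPC and ES serum lists had 1 CTCF site each and the ES 2i list 2. A site of all 3 lists had its summit at 87663947, 5.14 kb before the edge, with a fold enrichment of 22.3 in NPCs, 26.6 in ES serum and 29.9 in ES 2i. Within 16 kb of the next edge, 87685088, where the deposited values were lowest, the ES 2i list had 3 sites, the ES serum list 1 and the NPC list 0. The strongest of these, at 87691466, had a fold enrichment of 17.9 in ES serum and 24.6 in ES 2i. The NPC list had no site from 87663947 to 87739835, a gap of 75.9 kb.

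The edge between the middle and last segments lay in a dense group of sites. Within 16 kb of 88085088 there were 4 sites, 2 of them in all 3 lists. The nearest, at 88080676, had a fold enrichment of 24.6 in NPCs, 26.8 in ES serum and 17 in ES 2i, and 88096103 had 13.0 in NPCs, 43.4 in ES serum and 20.1 in ES 2i. Around the inner minima of the first segment, at the positions given above, sites were sparse. The NPC list had a gap of 187 kb from 87366499 to 87553125, which spans its boundary at 87525088, and the nearest site to that boundary, 18.6 kb away, was in the ES serum list only. For the ES 2i boundary at 87509088 the nearest site, 27.4 kb away, was in the ES 2i list only. At 87381088 the nearest, 87386644, was also in the ES 2i list only, but the other site within 16 kb of it, 87366499, was in all 3 lists, with a fold enrichment of 27.2 in NPCs, 34.5 in ES serum and 35.5 in ES 2i. With other settings the inner minima of NPCs and ES 2i moved to places with sites. A diamond of 5 windows put them at 87541088, with 2 sites within 16 kb. When pairs less than 2 windows apart were counted too, both groups had a minimum at 87573088. There, 3 sites of all 3 lists lay within 16 kb.

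The anchors of the NPC only clusters differed from each other in CTCF. In the middle segment, the anchor of the larger cluster held 2 sites, at 88018413 in both ES lists and at 88025004 in the ES 2i list, and the overlapping anchor of the smaller one held 88025004. Neither held a site of the NPC list. Their far anchors held 2 sites of all 3 lists each. The 2i only cluster that crossed the same edge had 2 sites in its near anchor, 1 of all 3 lists and 88078114 of both ES lists. Its far anchor held 0, but a site of all 3 lists, with its summit at 88244480, lay less than a 4 kb bin before it. The cluster of 2i and serum pixels had 3 sites in its near anchor, 2 of them of all 3 lists, and 3 of all 3 lists in its far one.

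Over 48 to 160 kb, window pairs with a CTCF site of all 3 lists at both ends had higher contact ratios than pairs without any site. This was before fragment balancing, and pairs of neither kind lay lowest. In that range, the 70 window pairs with such a site at both ends had a median log2 ratio of observed to expected counts of 0.39 and 0.47 in NPCs, 0.47 and 0.36 in ES serum and 0.44 and 0.39 in ES 2i. The 34 pairs without a site at either end had -0.30 and -0.03 in NPCs, 0.08 and 0.15 in ES serum and -0.14 and -0.07 in ES 2i. With balanced expected counts the first group had 0.12 and 0.09 in NPCs, 0.10 and 0.14 in ES serum and 0.01 and 0.06 in ES 2i, and the second -0.09 and 0.01 in NPCs, -0.05 and 0.04 in ES serum and -0.04 and -0.05 in ES 2i. Over 176 to 400 kb, the unbalanced medians of 119 pairs with sites were 0.26 and 0.26 in NPCs, 0.31 and 0.30 in ES serum and 0.60 and 0.50 in ES 2i. Those of 54 pairs without were 0.09 and -0.02 in NPCs, 0.33 and 0.29 in ES serum and 0.12 and 0.16 in ES 2i, so pairs with sites lay higher in NPCs and ES 2i but not in ES serum. After balancing this order turned in NPCs, with -0.19 and -0.18 for pairs with sites and 0.05 and -0.01 for pairs without. The balanced medians with sites were 0.0078 and -0.04 in ES serum and 0.06 and 0.03 in ES 2i, and without sites 0.01 and 0.10 in ES serum and 0.12 and 0.02 in ES 2i. The 275 pairs of neither kind over 48 to 160 kb lay lowest in every library before balancing. They had -0.31 and -0.27 in NPCs, -0.16 and -0.26 in ES serum and -0.40 and -0.28 in ES 2i. The 397 over 176 to 400 kb did as well. Theirs were -0.42 and -0.35 in NPCs, -0.25 and -0.19 in ES serum and -0.36 and -0.21 in ES 2i. After balancing, pairs of neither kind were no longer lowest in every library. Balancing removes any excess that a fragment has with all its partners, so which of the values is nearer to the looping of these sites was not tested.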

How the data were processed

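Raw read counts for each primer pair were deposited, from HindIII templates per the labels' protocols. The submitters' processing notes name Bowtie, MACS2 and mm9, without versions. Per the labels, the reads of these 5C libraries are those of earlier samples. The deposited interaction scores and observed values (a score on a log scale of unstated base) stand per pair of 4 kb bins. The score equals -10 times the log2 of the authors' deposited p-value within 0.05 for 1150203 of 1150210 values. Those values were used only to describe. The authors' peak lists give a fold enrichment (ratio) and a −log10 q per peak, deposited for 1 library per condition, and their names speak of downsampled reads. A further 37 per-sample columns were not used, and the siRNA libraries and inputs were not analysed here.

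Expected counts came from the mean count in 25 distance bins of equal size per library and locus. Edges and window pairs of all 7 loci entered 1 fit of the 6 libraries each with edgeR 4.0.16 in R 4.3.3, with group as the only term. Offsets were the log expected sums for edges, and for window pairs a loess fit on distance per library and locus (span 0.5, 0.5 added to counts before the log), after filterByExpr. TMM factors set the scale of each library only under plain scaling. SEs were taken from the log2 fold change and the F statistic. DESeq2 1.42.0 and limma 3.58.1 were alternatives. Balanced expected counts added a factor per fragment, fitted in 50 rounds. Other tools were Python 3.11.15, numpy 2.4.6, pandas 2.3.3 and matplotlib 3.10.9.

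The fits were tested on simulated data with known changes for NPCs against ES 2i. These were log2 changes of 0.5 and 1, drawn for each edge or window pair on its own at the common spread. The edge fit recovered 31 of 31 and 29 of 29. Most called Nestin edges changed by less than 0.5 and neighbouring edges share counts, so recovery of such changes was not tested. The window-pair fit recovered 0 of 97 and 27 of 102, so uncalled window pairs may still differ. The share of false calls of the window-pair fit lay somewhat above the threshold.

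Edges named are, per comparison, the 3 largest rises and falls past the threshold with separated libraries, at least 4 edges apart. Window pairs named are the 3 largest of each kind, at least 3 windows apart, with 100 counts in each library of the higher group. CTCF sites named are the nearest to each boundary and the 2 with the highest fold enrichment of each class, and others were chosen after their values were seen. The members, lists and rules were chosen with earlier results of these data known. Between both libraries of a group the chi-square over its degrees of freedom was 19.8 to 25.9, so neither was a copy. Alternatives were other diamond sizes, depths, filters, tools and scalings, balancing, a replicate block, libraries left out, and other rules for CTCF overlap.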

Additional observations from a re-analysis of the deposited data

Results flagged for a closer look

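Counts between primers of the same orientation stood outside the pairs used, and such products are not part of the assay's design. Within the Nestin locus they numbered 2397 and 1915 in NPCs, 10993 and 6979 in ES serum and 2123 and 2717 in ES 2i, all above the limit that a count of 0 allows.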

How the results depend on the processing

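Of the alternatives to the named edges, 308 kept direction and call, 30 lost the call and 4 reversed. Of those to the named window pairs, 237 kept both, 12 lost the call and 1 reversed. The 4 edges were 87637088 (0.032) and 87381088 (0.20) in NPCs against ES serum and 87445088 (-0.021) in ES serum against ES 2i, all with plain scaling, and 88197088 in ES serum against ES 2i (0.11) with a diamond of 5 windows. The pair was 87637088 with 87973088 in NPCs against ES 2i, at 0.024 without its top primer pair. Some alternatives reuse the same sums and offsets, and no filter, a replicate block and DESeq2 each kept all 18 named edges. Balancing kept 13 of them and lost 5 calls, and plain scaling kept 13, lost 2 and reversed 3. A kept call can rest on a smaller change, as after balancing above. For NPCs against ES serum, 46 edges were called with a diamond of 20 windows, which allows 51 edges, and 13 with balanced expected counts. Called window pairs numbered 107 in windows of 32 kb for NPCs against ES 2i, 914 in 8 kb and 190 in 32 kb for NPCs against ES serum, and 720 and 148 for ES serum against ES 2i; the number of pairs tested changes with the window. Where not stated, the cause of these changes was not tested.

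Leaving out 1 library at a time, the called edges numbered 19 to 23 for NPCs against ES 2i, 20 to 29 for NPCs against ES serum and 25 to 33 for ES serum against ES 2i. The called window pairs numbered 91 to 164, 238 to 510 and 112 to 466 in the same comparisons. A lone library was then assumed to vary like the other groups. Boundaries stayed at 3 in NPCs, 2 in ES serum and 3 in ES 2i.

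The authors' observed values gave 1 boundary in NPCs and 1 in ES 2i, balancing gave 1 in ES serum and 0 in ES 2i, and a depth of 0.5 gave 1 in ES serum. Without balancing, contacts between the first and middle segments were at -0.94 in NPCs, -0.47 in ES serum and -0.61 in ES 2i, and those between the middle and last turned to 0.42 in NPCs, 0.045 in ES serum and 0.31 in ES 2i. With a −log10 q of at least 20, CTCF sites numbered 0 in the NPC and ES 2i lists only, 1 in NPC only, 3 in ES serum only and 7 in ES 2i only. When a peak had to overlap by 50% of its length they numbered 4, 11 and 8 in the first 3 of these classes, and summits within 200 bp gave 1 NPC only site.

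Whether the replicate numbers pair the libraries is not in the labels and was not settled. Deviations of same-numbered libraries correlated at 0.03 to 0.09 over window pairs. Over edges they correlated at 0.54 between NPCs and ES 2i, 0.19 between ES serum and ES 2i and -0.06 between NPCs and ES serum. With the replicate number as a block, 24, 33 and 34 edges and 309, 597 and 521 window pairs were called in NPCs against ES 2i, NPCs against ES serum and ES serum against ES 2i. The named single contacts rest on 1 to 12 primer pairs, and their precision is limited by the counts these hold.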

Other observations

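The window pair with the highest mean ratio of observed to balanced expected counts joined windows starting at 87429088 and 88053088, 624 kb apart, from the first to the middle segment. It was chosen after its values were seen. The mean ratio was 13.3, from 22.6 and 7.34 in NPCs, 20.4 and 22.6 in ES serum and 5.23 and 13.7 in ES 2i, on 4 primer pairs. Counts were 829 and 333 in NPCs, 2183 and 2604 in ES serum and 195 and 870 in ES 2i, so libraries of the same group lay far apart in NPCs and ES 2i. Neither window held a CTCF site of any list, and the pair held 2 pixels of the constitutive class. A site of the ES 2i list only, with its summit at 87428147, lay just before the window starting at 87429088.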
